A study of Mus musculus with 2 samples.

Results

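The genes that write, maintain and erase DNA methylation were followed from haematopoietic stem cells to erythroblasts of the mouse fetal liver, in IκBα WT and IκBα KO embryos. The set was a list of 7 genes of the 32285 in the deposited count tables: the methyltransferases Dnmt1, Dnmt3a and Dnmt3b, the maintenance partner Uhrf1, and the dioxygenases Tet1, Tet2 and Tet3. They were listed by name, but the list was chosen with earlier results of these data known.

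Single-cell RNA sequencing (10x Genomics, 3′ chemistry) had been carried out on E14.5 fetal liver cells of the CD1 strain, depleted of lineage-positive cells and sorted as LSK cells, which lack lineage markers and carry SCA1 and cKIT on their surface. The titles of the samples name LT-HSC (long-term stem cells) instead, so the labels disagree on the sorted population. The WT library was a pool of 2 embryos with intact Nfkbia, the gene of the NF-κB inhibitor IκBα. The KO library was a pool of 3 embryos in which this gene was knocked out. With 1 library per genotype, no test between genotypes was possible, and cells of a library are not replicates.

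Methylation of cytosine in CpG dinucleotides is laid down on unmethylated DNA by DNMT3A and DNMT3B. At each replication it is copied to the new strand by DNMT1, which UHRF1 recruits to hemimethylated sites. TET enzymes oxidise methylcytosine, which opens the way to its loss, and both Dnmt3a and Tet2 are known for restraining self-renewal of blood stem cells, while erythroid cells are known to lose methylation across the genome as they mature.

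The positions below are of GRCm38, the build of the count tables, from the GENCODE vM21 annotation, and all 7 genes are protein-coding. Dnmt1 lies on chromosome 9 from 20907209 to 20959888 on the minus strand and Uhrf1 on chromosome 17 from 56303321 to 56323486 on the plus strand. Dnmt3a lies on chromosome 12 from 3806007 to 3914443 and Dnmt3b on chromosome 2 from 153649450 to 153687730, both on the plus strand. The TET genes are on the minus strand, Tet1 on chromosome 10 from 62804570 to 62908996, Tet2 on chromosome 3 from 133463679 to 133545139 and Tet3 on chromosome 6 from 83362373 to 83459084. Antisense genes overlap Dnmt3a (Dnmt3aos), Dnmt3b (Dnmt3bos) and Tet2 (Gm42567). Short or antisense genes also overlap Dnmt1, Tet1 and Tet3, and none overlaps Uhrf1. Whether strand was used in counting is not given in the sources used here, so a part of the UMIs of the overlapped genes could belong to their partners.

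Dnmt1, Uhrf1 and, to a lesser extent, Dnmt3b were higher in stem cell gate cells with many proliferation transcripts, and the promoters were searched for letters bound by E2F factors, the regulators of S phase genes. The windows were those of RefSeq (GRCm38.p6), 300 bases each, from 250 before to 50 after an annotated start, and all 7 members matched, with 12 windows. The letters searched, on both strands, were TTTCCCGC, TTTCGCGC, TTTGCCGC and TTTGGCGC. At least 1 of these stood in 2.26% of the 32851 windows of the table. Of the members, Dnmt1 had 2 matches in 1 of its windows and Uhrf1 had 1 match. All letters searched contain a CG, and the matched windows of Dnmt1 and Uhrf1 held 33 CpG each. Over all windows the median was 7 CpG, and 26.5% held at least 20. The share of matches among windows as rich in CpG was not computed. The windows of Dnmt3a, Dnmt3b, Tet1, Tet2 and Tet3 held none of these letters. A match is a run of letters and not a site shown to be bound. The stretches are printed 5′ to 3′ on the strand of the gene, with the matched letters in capitals. Both Dnmt1 matches, the first on the opposite strand, are shown with 8 bases on either side, the Uhrf1 match within the 250 bases before its start, and the same stretch of Dnmt3b, also higher with proliferation, is a promoter without a match.
Dnmt1, chr9:20952827-20952850: ttccgcgcGCGCGAAAaagccggg
Dnmt1, chr9:20952575-20952598: gggcagcgTTTGGCGCgggctgtg
Uhrf1, chr17:56304063-56304312: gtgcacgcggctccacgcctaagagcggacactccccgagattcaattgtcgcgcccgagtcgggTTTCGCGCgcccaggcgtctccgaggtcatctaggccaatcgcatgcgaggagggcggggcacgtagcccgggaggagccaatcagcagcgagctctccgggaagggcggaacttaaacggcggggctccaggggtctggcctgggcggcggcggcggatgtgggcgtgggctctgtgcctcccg
Dnmt3b, chr2:153649199-153649448: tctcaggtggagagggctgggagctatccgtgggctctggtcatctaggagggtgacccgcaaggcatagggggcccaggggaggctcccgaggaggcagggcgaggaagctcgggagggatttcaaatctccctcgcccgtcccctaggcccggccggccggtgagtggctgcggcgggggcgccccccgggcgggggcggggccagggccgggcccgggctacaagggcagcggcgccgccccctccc
Both Dnmt1 stretches lie in annotated UTR exons. The Uhrf1 stretch lies within the gene, before an internal start and outside annotated coding or untranslated exons. The Dnmt3b stretch ended just before the annotated gene start. It held 21 CpG and the Uhrf1 stretch 30.

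After filtering, 3458 WT cells and 4417 KO cells remained, with medians of 28065 and 19560 UMIs (unique molecular identifiers, each an RNA molecule). Nfkbia, the targeted gene, had 1484 UMIs in the WT library and 7 in the KO library. Xist without Y-linked UMIs was seen in 96.6% of WT cells and in 69.8% of KO cells. Y-linked UMIs without Xist were seen in 0.118% of WT and 17.6% of KO cells, so the pools differed in sex as well as genotype. In both libraries 7 cell barcodes occurred. Ly6a, which encodes SCA1, had a UMI in 4.44% of WT and 3.94% of KO cells when each cell was thinned to 5000 UMIs, and Kit in 21.2% and 17.3%, so most cells carried neither transcript of the labelled sort at this depth.

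Cells were assigned to gates by the UMIs of marker genes, none of them a member, after thinning to 5000 UMIs. A stem cell gate (at least 3 UMIs of 7 markers such as Hlf and Mecom) held 248 WT and 251 KO cells. Cells with markers of multipotent progenitors (MPP) numbered 472 and 475, and those with megakaryocyte-erythroid (MkE) markers 191 and 228. Erythroid cells were split by erythroblast markers into early (624 and 755), late (345 and 495) and Kit-free erythroblast gates (600 and 959). In UMIs left out of the gating, Hlf stood at 273 (WT) and 227 (KO) CPM in the stem cell gate against 4.11 and 3.97 in erythroblasts, and Klf1, an erythroid transcription factor, at 3.95 and 8.76 against 414 and 389. Hlf was still at 74.4 and 62.6 CPM in the MPP gate. The gates are ranges of a score: 92 WT and 95 KO cells of the stem cell gate were at its limit, and 155 and 154 cells were 1 UMI below it.

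The maintenance genes Dnmt1 and Uhrf1 kept high levels along the whole path, and from the early erythroid gate on they were the most abundant members in both libraries. Levels are CPM, the UMIs of a gene per 1000000 UMIs of the gate, with exact Poisson 95% intervals that cover counting error only. A UMI tags the 3′ end of a molecule, so levels were compared between genes without division by length. A lower level in a gate may come from fewer expressing cells or from less RNA per cell, which cannot be told apart in these sums.

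Dnmt1, the maintenance methyltransferase, stood at 220.4 CPM (205.7 to 235.9) in the WT stem cell gate and 254.5 (236.3 to 273.7) in the KO stem cell gate. In the WT library it was at 176.7 in MPP, 178.3 in MkE, 131.7 in early erythroid, 125.0 in late erythroid and 131.5 CPM in erythroblast cells. In the KO library these levels were 203.7, 183.0, 141.1, 139.5 and 133.9 CPM. Dnmt1 was thus highest in the stem cell gate in both libraries. In the order of levels, neighbours among the 3 erythroid gates had differences whose intervals included 0, and the ends of that run were not compared. From the stem cell gate to the erythroblast gate the log2 difference was -0.75 (-0.86 to -0.63) in WT and -0.93 (-1.05 to -0.80) in KO. That is close to the median of all genes tested, which was -0.67 and -0.65.

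Uhrf1, which guides DNMT1 to newly replicated DNA, had no such decline. Its WT levels were 112.1 CPM in the stem cell gate, 100.8 in MPP, 111.3 in MkE, 109.6 in early erythroid, 118.2 in late erythroid and 146.6 in erythroblast cells. The KO levels were 119.2, 110.3, 104.4, 112.8, 129.8 and 132.9 CPM in the same order. In KO, MPP (103.3 to 117.6), MkE (95.61 to 113.8) and early erythroid cells (108.5 to 117.1) had intervals below those of the later gates. These were 124 to 135.8 in late erythroid and 127.6 to 138.4 in erythroblast cells. The log2 difference between erythroblast and stem cell gates was 0.39 (0.24 to 0.54) in WT and 0.16 (-0.01 to 0.33) in KO, where it was -0.02 with gates read at 8500 UMIs and -0.04 with equal weight for each proliferation tertile. Relative to the median gene, Uhrf1 was higher by 1.06 on the log2 scale in WT and 0.80 in KO. Haemoglobin, mitochondrial and ribosomal protein genes took 49.9% of WT and 50.8% of KO erythroblast UMIs against 37.2% and 36.7% in the stem cell gate, and leaving them out of the CPM shifted every gene by 0.33 and 0.36 on the log2 scale.

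**Figure D1:**
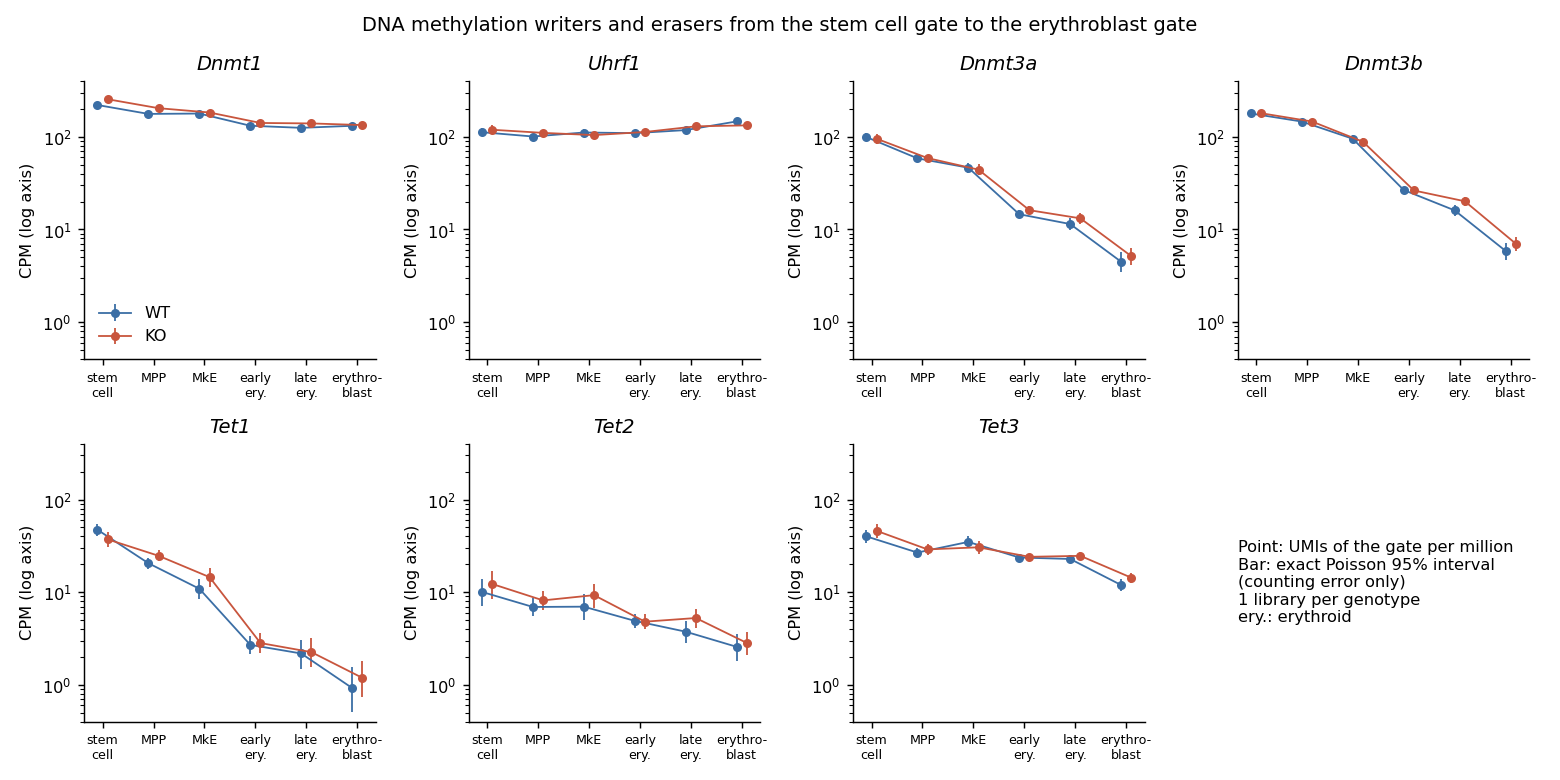
Level of each member in CPM (log axis) from the stem cell gate to the erythroblast gate in the WT and KO libraries, 1 library each, with exact Poisson 95% intervals as bars. Uhrf1 stayed between 100.8 and 146.6 CPM in WT, whereas Dnmt3b went from 178.6 to 5.87 CPM and Tet1 from 47.2 to 0.924 CPM.

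The de novo methyltransferases were lower at every step of the path in both libraries. Dnmt3a, the gene most often mutated in human clonal haematopoiesis, stood at 99.4 CPM (89.55 to 109.9) in the WT stem cell gate, then at 58.6 in MPP, 46.45 in MkE, 14.6 in early erythroid, 11.45 in late erythroid and 4.49 in erythroblast cells. In the KO library it stood at 95.3, 59.0, 44.2, 16.2, 13.2 and 5.16 CPM. Dnmt3b, the de novo enzyme of early embryos, was higher than Dnmt3a in every one of these gates. Its WT levels were 178.6, 146.1, 95.3, 26.7, 16.1 and 5.87 CPM, and its KO levels 179.8, 146.2, 88.5, 26.4, 20.2 and 7.03 CPM. With all barcodes kept, the largest step of both genes was between the MkE and early erythroid gates. Without the barcodes that the doublet caller Scrublet marked, Dnmt3b was at 96.2, 23.45, 10.3 and 1.84 CPM from MkE to erythroblast in WT. In KO it was then at 88.5, 21.8, 11.5 and 1.93 CPM. Its largest step was from late erythroid to erythroblast in both, as was that of Dnmt3a in KO. In WT the steps of Dnmt3a from MkE to early erythroid (47.56 to 13.88 CPM) and from late erythroid to erythroblast (9.51 to 2.75) were of nearly equal size.

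Dnmt3a was 22.1-fold lower in the erythroblast gate than in the stem cell gate in WT (log2 -4.47, -4.86 to -4.09) and 18.5-fold lower in KO (-4.21, -4.57 to -3.86). Dnmt3b was 30.4-fold lower in WT (-4.93, -5.26 to -4.61) and 25.6-fold lower in KO (-4.68, -4.97 to -4.39). In the fetal stem cell gate Dnmt3b made up 64.3% (61.3 to 67.2) of the DNMT3 family UMIs in WT and 65.4% (61.9 to 68.7) in KO, with exact Clopper-Pearson intervals.

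Among the erasers, Tet1 had the largest difference between the ends of the path, and Tet2 and Tet3 smaller ones whose intervals overlapped. Tet1, the dioxygenase best known from embryonic stem cells and germ cells, was at 47.2 CPM in the WT stem cell gate, 20.5 in MPP, 10.9 in MkE, 2.70 in early erythroid, 2.18 in late erythroid and 0.924 in erythroblast cells, where 14 UMIs were counted. The KO levels were 37.15, 24.7, 14.54, 2.83, 2.26 and 1.19 CPM, the last from 21 UMIs. The stem cell gate was thus 51 times (29.6 to 95.3) above the erythroblast gate in WT and 31.2 times (19.4 to 52.5) in KO.

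Tet3, the third enzyme of the family, which has its main known role in the zygote, stood at 40.0 CPM in the WT stem cell gate, 26.8 in MPP, 34.9 in MkE, 23.7 in early erythroid, 22.8 in late erythroid and 11.95 in erythroblast cells. Its KO levels were 45.9, 29.0, 30.5, 24.1, 24.7 and 14.3 CPM. In the order of levels, neighbours from MPP over early to late erythroid cells in WT had differences whose intervals included 0. So had neighbours from MkE over MPP and late to early erythroid cells in KO. Gates further apart within these runs were not compared. The stem cell gate was 3.35 times (2.68 to 4.18) above the erythroblast gate in WT and 3.2 times (2.57 to 3.97) in KO.

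Tet2, a gene often mutated in myeloid malignancies, was the scarcest member of the stem cell gate, with 38 WT UMIs (10.1 CPM, 7.13 to 13.8) and 35 KO UMIs (12.3 CPM, 8.54 to 17.1). Along the path it went in WT from 6.93 CPM in MPP and 6.98 in MkE to 4.91, 3.75 and 2.57 in the erythroid gates. The KO levels were 8.16, 9.29, 4.81, 5.26 and 2.83 CPM. It was lower in erythroblasts than in stem cells by 1.97 (1.28 to 2.65) on the log2 scale in WT, a value resting on 38 and 39 UMIs.

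Of the 6 members with at least 100 UMIs over both gates, 4 were past 2-fold lower in erythroblasts in each library (Dnmt3a, Dnmt3b, Tet1 and Tet3), where 37.8% of all genes tested were past 2-fold lower in WT and 35.1% in KO. None of the 6 was past 2-fold higher, where 8.37% of genes were so in WT and 7.9% in KO. In WT, Dnmt3a, Dnmt3b and Tet1 had 68, 89 and 14 erythroblast UMIs. They reached 100 only through the stem cell gate, with 375, 674 and 178. In KO the same held for Dnmt3a (91 and 272) and Tet1 (21 and 106). Tet2 fell short of 100 in both libraries. The count thus favours members high in the stem cell gate and cannot be read as a result about the set.

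Some of the erythroblast signal of the declining genes came from few barcodes. Scrublet, which calls barcodes that look like 2 cells of different kinds, marked 21 of 600 WT and 47 of 959 KO barcodes of the erythroblast gate. These held 63 of the 89 Dnmt3b UMIs of the WT gate (70.8%) and 93 of the 124 of the KO gate (75%). Their Dnmt3b level was 63.45 CPM in WT and 59.8 in KO, against 1.84 and 1.93 CPM in the other barcodes of the gate.

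Tet1 was divided in the same way, with 7 of 14 WT and 18 of 21 KO UMIs in the called barcodes, which left 3 UMIs in all other KO barcodes of the gate. Dnmt3a had 42.6% of its WT and 38.5% of its KO UMIs there. For the maintenance genes the called barcodes differed less from the rest, with Dnmt1 at 167.2 against 129.0 CPM in WT and 163.3 against 131.1 in KO, and Uhrf1 at 159.1 against 145.8 and 129.9 against 133.2. In the late erythroid gate, called barcodes held 44.1% of the Dnmt3b UMIs in WT and 52.2% in KO, and 50% and 54.5% of the Tet1 UMIs. Without them the late erythroid level of Dnmt3b was 10.3 in WT and 11.5 CPM in KO, and that of Tet1 1.247 and 1.227. With all called barcodes left out, the log2 difference between erythroblast and stem cell gates was -6.60 in WT and -6.54 in KO for Dnmt3b, -5.17 and -4.78 for Dnmt3a, and -6.58 and -7.64 for Tet1. The stem cell gate held no called barcode in either library. Whether the called barcodes held 2 cells was not tested.

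**Figure D2:**
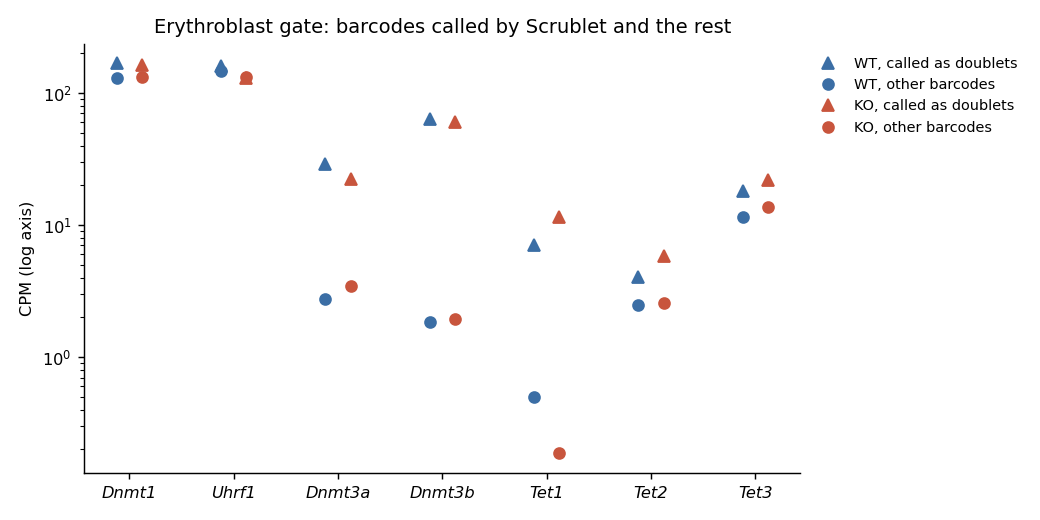
Level of each member in CPM (log axis) in barcodes of the erythroblast gate that Scrublet called as doublets (triangles, 21 WT and 47 KO) and in all other barcodes of the gate (circles). Dnmt3b stood at 63.45 and 59.8 CPM in the called barcodes and at 1.84 and 1.93 CPM in the rest, while Dnmt1 stood at 167.2 and 163.3 CPM against 129.0 and 131.1.

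The makeup of the TET family shifted along the path, from stem cell shares of Tet1 and Tet3 with overlapping intervals to mostly Tet3. In the WT stem cell gate Tet1 gave 48.5% of TET UMIs (43.3 to 53.7), Tet3 41.1% (36.1 to 46.4) and Tet2 10.4% (7.43 to 13.9). In the KO stem cell gate the shares were 39% (33.1 to 45), 48.2% (42.1 to 54.3) and 12.9% (9.13 to 17.4). By the early erythroid gate Tet3 gave 75.7% in WT and 75.9% in KO, and Tet1 gave 8.64% and 8.91%. The share of Tet2 stayed between 10.4% and 17.1% throughout. Tet3 thus made up most of the TET transcripts in all erythroid gates of both libraries, also without the called barcodes, where its erythroblast share was 79.5% in WT and 83.3% in KO. This was not particular to erythroid cells. Its shares in WT and KO were 66.1% and 56.1% in MkE, 70.6% and 76.3% in megakaryocyte and 74.2% and 72% in endothelial cells. They were 66.7% and 62.4% in macrophages, 65% and 67.6% in hepatocytes and 56% and 52.1% in neutrophils. In lymphoid cells they were 49% and 55.4%, and in monocytes 48.8% and 58.7%.

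In the DNMT3 family Dnmt3b led in all 6 gates of the path, with 71.4% and 71.3% in MPP and 56.7% (48.6 to 64.6) and 57.7% (50.8 to 64.4) in erythroblasts. Without the called barcodes the order turned in erythroblasts, where Dnmt3b gave 40% (28 to 52.9) of 65 UMIs in WT and 35.6% (25.6 to 46.6) of 87 in KO. The summed methyltransferases had 5.13 UMIs (4.58 to 5.75) per TET UMI in the WT stem cell gate and 9.18 (8.02 to 10.6) in WT erythroblasts, against 5.56 (4.88 to 6.34) and 7.96 (7.09 to 8.96) in KO. In the other gates the ratio lay from 5.3 to 7.03. Dnmt1 gave 1992 of the 2149 methyltransferase UMIs of WT erythroblasts and 2363 of the 2578 of KO erythroblasts.

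**Figure D3:**
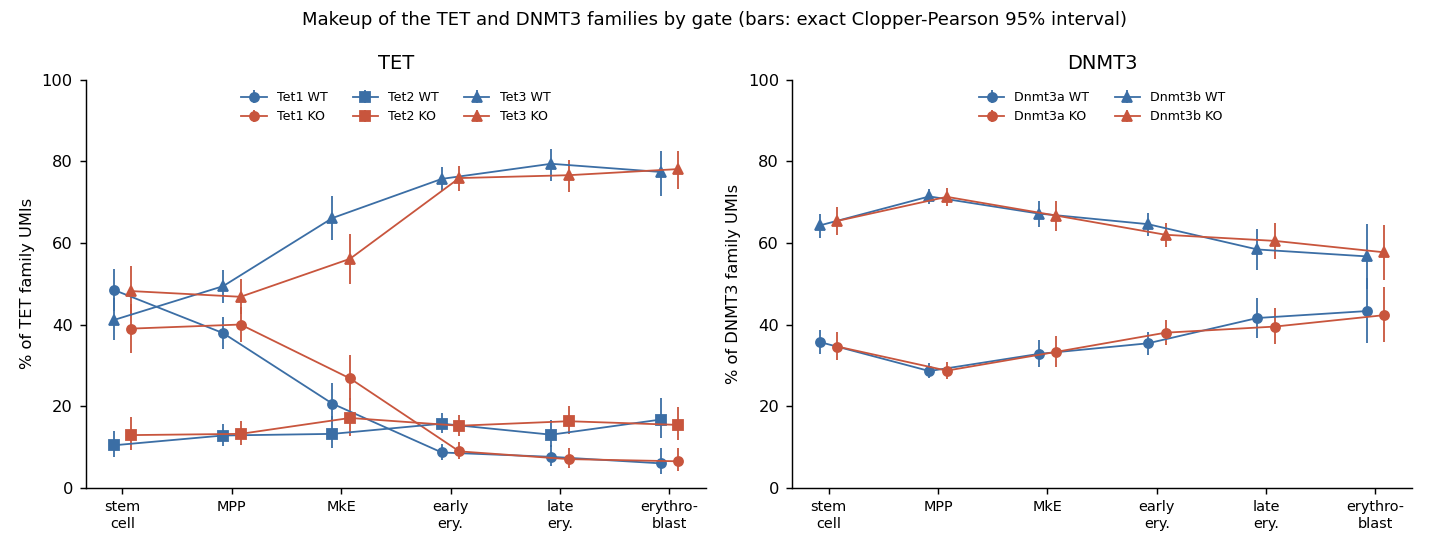
Share of each gene in the UMIs of the TET family (left) and of the DNMT3 family (right) by gate, in percent with exact Clopper-Pearson 95% intervals, for the WT and KO libraries with all barcodes kept. Tet3 went from 41.1% to 77.4% of TET UMIs in WT while Tet1 went from 48.5% to 5.98%.

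Levels were then set beside the proliferation state of the same cells, since DNMT1 and UHRF1 act at replication. Cells of each gate were divided into tertiles by the summed UMIs of 38 S and G2/M phase genes, none of them a member. In the stem cell gate, Dnmt1 and Uhrf1 were low in the lowest tertile and higher in the others, in both libraries. Dnmt1 stood at 101.6 CPM in the lowest tertile, 271.3 in the middle and 255.2 in the highest in WT, and at 112.7, 285.9 and 296.6 CPM in KO. Between the highest and the lowest tertile its log2 difference was 1.33 (1.01 to 1.66) in WT and 1.40 (1.02 to 1.79) in KO.

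Uhrf1 stood at 41.85, 145.9 and 128.7 CPM in the WT tertiles and at 53.8, 182.4 and 98.9 CPM in the KO tertiles. Its highest level was thus in the middle tertile of both libraries. The log2 difference of highest to lowest was 1.62 (1.13 to 2.14) in WT and 0.88 (0.31 to 1.49) in KO. With S phase genes alone it was 2.43 and 2.17, and with G2/M genes alone 0.48 and -0.39, so Uhrf1 went with the S phase genes.

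Dnmt3b differed less, at 138.5, 193.1 and 193.1 CPM in WT and 148.0, 159.7 and 211.4 in KO, a log2 difference of 0.48 (0.18 to 0.79) and 0.51 (0.16 to 0.88) that was -0.02 and 0.12 with S phase genes alone. Dnmt3a had its highest level in the lowest tertile, with 108.6 CPM against 104.3 in the highest in WT and 124.5 against 86.8 in KO. The log2 difference was -0.06 (-0.43 to 0.32) in WT, with an interval that included 0, and -0.52 (-0.96 to -0.07) in KO. With S phase genes alone the KO value was -0.11. For Tet1, Tet2 and Tet3 the intervals of the difference included 0 in both libraries. Higher by more than 25% in the highest tertile were 3 of 5 members with at least 100 UMIs in WT and 3 of 4 in KO, namely Dnmt1, Uhrf1 and Dnmt3b, where 24.1% and 27.4% of all genes tested were so.

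Tertile limits differed by gate, at 11 and 32 UMIs in the stem cell gate, 25 and 32 in early erythroid cells and 35 and 45 in erythroblasts, so sizes cannot be compared between gates. For Dnmt1 the difference of the highest to the lowest tertile was 0.48 in WT and 0.47 in KO in early erythroid cells, and 0.50 (0.34 to 0.65) and 0.78 (0.63 to 0.93) in erythroblasts. For Uhrf1 it was -0.42 (-0.63 to -0.21) in WT and -0.24 (-0.49 to 0.02) in KO in the MPP gate, and -0.95 (-1.24 to -0.67) and -0.34 (-0.68 to 0.01) in the MkE gate. In erythroblasts Uhrf1 was higher in the highest tertile, by 0.39 (0.25 to 0.54) and 0.36 (0.21 to 0.51). Thinned cells of the stem cell gate had a mean of 9.45 S phase UMIs in WT and 10.5 in KO, those of the erythroblast gate 18.1 in both.

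**Figure D4:**
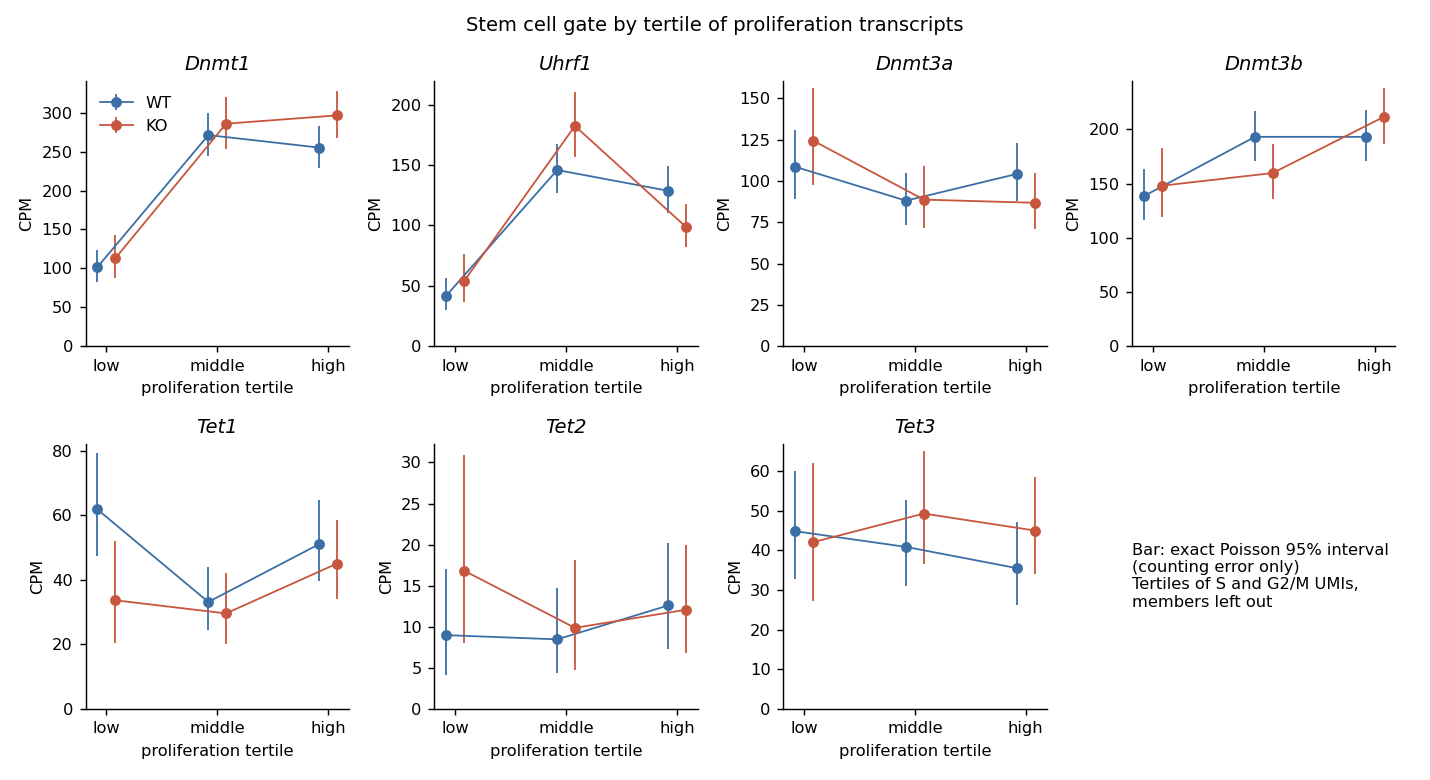
Level of each member in CPM in the stem cell gate, by tertile of S and G2/M phase UMIs, in the WT and KO libraries with exact Poisson 95% intervals. Dnmt1 was at 101.6 and 255.2 CPM and Uhrf1 at 41.85 and 128.7 CPM in the lowest and the highest WT tertile.

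The genotypes were compared gate by gate along the path, to see whether loss of IκBα went with other levels of the methylation machinery. Differences were small beside those along the path, and Dnmt1 alone was higher in the KO library in all 6 gates. Its log2 KO/WT was 0.21 (0.06 to 0.35) in the stem cell gate, 0.20 (0.11 to 0.30) in MPP, 0.04 (-0.09 to 0.17) in MkE, 0.10 (0.03 to 0.17) in early erythroid, 0.16 (0.07 to 0.25) in late erythroid and 0.03 (-0.06 to 0.11) in erythroblast cells, with exact conditional 95% intervals for counting error. The MkE value was -0.07 with 1 more marker UMI, and the other gates kept their sign under all 11 alternatives. Some of these changed no cell of a gate, such as removal of Scrublet calls in the stem cell gate, and could not change its value. None of the 6 main values was past 25%, meaning 1 genotype more than 25% above the other. In the stem cell gate the value lay between 0.11 and 0.30 under the 11 alternatives tried, 0.12 among cells that had Xist and lacked Y-linked UMIs, and 0.15 with equal weight for each proliferation tertile. The libraries also differed in depth and in sex, by their shares of cells with Xist alone and with Y-linked UMIs alone. The part of these in the KO/WT values was not tested further.

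Uhrf1 went both ways. It was higher in KO by 0.13 in MPP (0.00 to 0.25) and late erythroid cells (0.04 to 0.23) and lower in erythroblasts, at -0.14 (-0.23 to -0.06). The erythroblast value was -0.02 with gates read at 8500 UMIs and 0.03 without thinning. In the stem cell gate Uhrf1 was at 0.09 (-0.12 to 0.30), made up of 0.36 (-0.35 to 1.06) in the lowest proliferation tertile, 0.32 (0.03 to 0.62) in the middle and -0.38 (-0.73 to -0.04) in the highest.

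For the de novo enzymes no difference was detectable in the stem cell gates at this depth. The log2 KO/WT was -0.06 (-0.29 to 0.17) for Dnmt3a and 0.01 (-0.16 to 0.18) for Dnmt3b. In late erythroid cells Dnmt3b was higher in KO by 0.33 (0.07 to 0.58), with 236 UMIs in WT and 295 in KO. Of these, 104 and 154 lay in barcodes called by Scrublet. The value was 0.16 without the called barcodes, 0.05 among cells that had Xist and lacked Y-linked UMIs, and -0.47 with gates read without thinning.

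Tet1 was the only counted member past 25% in the stem cell gate, with 178 UMIs in WT and 106 in KO and a log2 KO/WT of -0.34 (-0.70 to 0.01). The difference stood mainly in the lowest proliferation tertile, which had 62 and 20 UMIs (-0.88, -1.68 to -0.13), against -0.16 and -0.18 in the others, and whether the tertiles differed was not tested. With gates read at 8500 UMIs the stem cell value was -0.05 and without thinning 0.02. In the MkE gate Tet1 was higher in KO, by 0.42 (-0.09 to 0.93) from 64 and 72 UMIs. Tet2 was higher in KO late erythroid cells by 0.49 (-0.03 to 1.02), from 55 and 77 UMIs. Tet3 differed by no more than 0.26 in any of the 6 gates, and each interval included 0, but it was at -0.49 in MkE with 1 more marker UMI.

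Among members with at least 100 UMIs, those past 25% were 1 of 6 members in the stem cell gate, none of 7 in MPP, 1 of 6 in MkE, none of 7 in early erythroid, 2 of 6 in late erythroid and none of 5 in erythroblast cells. The shares over all genes tested were 13.3%, 9.39%, 10.4%, 7.61%, 10.8% and 9.89% in the same order. The MPP count rested on the thinned gates. Without thinning, the MPP gate held 20 WT and 62 KO cells. The log2 KO/WT was then 0.69 for Dnmt1, 0.45 for Dnmt3a, 0.44 for Uhrf1, 0.85 for Tet1, 1.10 for Tet2, 1.02 for Tet3 and 0.32 for Dnmt3b. All but Dnmt3b were past 25%, but the share of all genes past 25% was not computed for this unthinned gate. The shift can therefore not be read as particular to the members. Dnmt1 was also past 25% in MPP with gates at 8500 UMIs, at 0.42, where the share of all genes was not computed either. A counting interval without 0 was found for 1, 2, 0, 1, 3 and 1 members, where it was found for 11.8%, 16.8%, 12.2%, 19.8%, 22.1% and 18.6% of all genes tested.

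**Figure D5:**
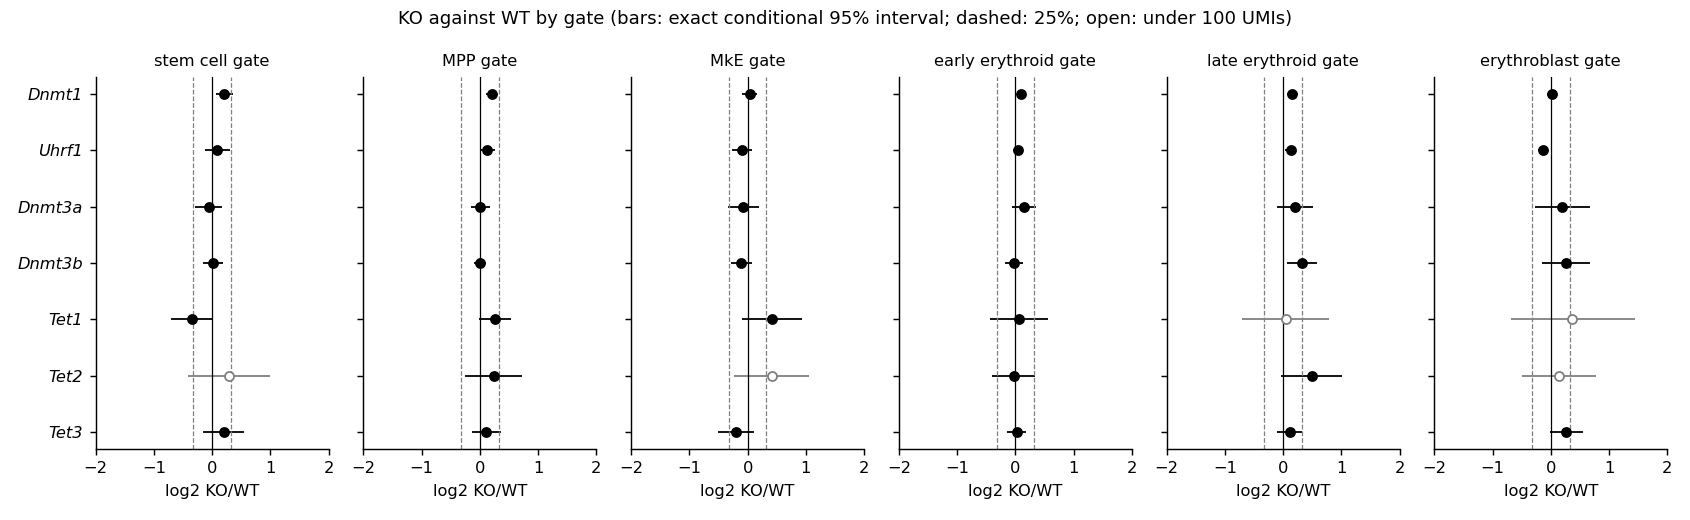
log2 KO/WT of each member in the 6 gates with exact conditional 95% intervals for counting error, 1 library per genotype. Dashed lines mark 25%, open points rest on under 100 UMIs, and Dnmt1 lies to the right of 0 in each gate, between 0.03 and 0.21.

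Outside the path, members had other peaks. Tet2 was highest in the gate with monocyte and dendritic markers, at 19.7 CPM (12.2 to 30.1) in 32 WT cells and 21.2 (12.1 to 34.5) in 40 KO cells. The neutrophil gate followed at 14.7 (12.1 to 17.8) and 15.9 CPM (12.9 to 19.3). Dnmt3b in the lymphoid gate, at 155.5 CPM in WT and 178.6 in KO, was near its stem cell level, and it was lowest among these gates in hepatocytes in WT and KO, at 10.5 and 19.1 CPM. Dnmt3a reached 91.1 CPM in the megakaryocyte gate of WT and 68.4 in that of KO, which held 23 and 111 cells. In KO the macrophage gate was higher, at 76.2 CPM, and the lymphoid gate stood at 68.8. Tet3 had its highest WT level in the endothelial gate, at 54.2 CPM in WT against 48.0 in KO, whereas in KO the monocyte gate stood at 49.05. Uhrf1 in hepatocytes was at 51.5 CPM in WT and 71.5 in KO.

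A list of 47 further genes of the pathway was followed from the stem cell gate to the erythroblast gate. Of those with at least 100 UMIs, 2 of 34 were past 2-fold higher and 15 past 2-fold lower in WT, and 2 of 36 higher and 17 lower in KO. Over all genes tested, 8.37% were higher and 37.8% lower in WT, and 7.9% and 35.1% in KO. The median log2 difference of the list was -0.88 and -0.95, and that of all genes -0.67 and -0.65. The genes past 2-fold higher in both libraries were Pcna, the replication clamp that DNMT1 binds (175.4 to 439.8 CPM in WT), and Mbd2, a reader of methylated CpG (57.5 to 174.5 CPM).

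Among those lower in both libraries were the maintenance factors Uhrf2 and Cdca7, the partner of the remodeller HELLS (150.2 to 37.4 CPM in WT and 141.6 to 34.3 in KO). The histone methyltransferases Nsd1 and Setd2, whose marks guide de novo methylation, were at -1.82 and -1.36 in WT and -1.70 and -1.05 in KO. Trim28, the corepressor of KRAB zinc finger proteins, was at -1.74 and -1.59. Cxxc5, a CXXC protein linked to TET2, had the largest difference of the counted genes, with 102.8 CPM in the WT stem cell gate and 2.90 in erythroblasts, and 98.5 and 3.63 in KO. Ogt, the sugar transferase that binds TET proteins, was at -1.59 and -1.49, and the repair endonuclease Apex1 at -1.63 and -1.60.

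Of the readers, Zbtb38 was at -3.69 and -3.10, Zbtb33 at -2.22 and -1.94 and Mbd6 at -1.65 and -1.36. Of the enzymes that supply methyl groups or the TET cofactor oxoglutarate, Shmt1 was at -3.00 and -2.74, Mtr at -1.56 and -1.28, Idh1 at -3.09 and -2.25 and Idh2 at -2.25 and -2.32. Hells, Ctcf, Mat2a and Tdg were not past 2-fold.

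In the stem cell gate the list showed 1 gene past 25% higher in KO and 3 lower among 32 counted, where 13.3% of all genes tested were past 25%, so the count is near that of all genes. Mbd4, the glycosylase that removes deaminated methylcytosine, was at 0.64 (0.15 to 1.13) from 67 WT and 79 KO UMIs. Mbd6 was at -0.50 (-1.01 to 0.00), Zbtb38 at -0.39 (-0.77 to -0.01) and Mtr at -0.35 (-0.82 to 0.11). The list's median log2 KO/WT was 0.00 and that of all genes 0.01. In the other gates the genes past 25% higher and lower were 0 and 0 of 36 counted in MPP and 0 and 2 of 35 in MkE. They were 1 and 1 of 39 in early erythroid, 4 and 1 of 38 in late erythroid and 1 and 0 of 36 in erythroblast cells. The shares of all genes past 25% either way were 9.39%, 10.4%, 7.61%, 10.8% and 9.89% in the same order.

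The genes with the most similar profile were found by Pearson's r of log2(CPM + 1) over 13 gates of both libraries, 26 points that share their libraries, among 7832 genes. For Dnmt1 these were Pcnt, Ctcf and Cenpc1 (0.928, 0.919 and 0.919), and for Uhrf1 Atad5, Mcm4 and Ncapd3 (0.909, 0.902 and 0.89), of which Mcm4 is a subunit of the replicative helicase and belongs to the proliferation list. Dnmt3a was closest to Appl1, Card19 and Sh3bgrl (0.96, 0.953 and 0.952), Dnmt3b to Panx1, Sinhcaf and Acap1 (0.947, 0.946 and 0.941). Tet1 was closest to Prkag2, Plekha2 and Il21r (0.96, 0.955 and 0.942). For Tet2 they were Ifngr2, Trps1 and Diaph2 (0.955, 0.945 and 0.938), and for Tet3 Rasa1, Ywhab and Itpkb (0.94, 0.927 and 0.926). Between members the closest pair was Dnmt3b and Tet1 (0.912), followed by Dnmt3a and Tet1 (0.877), whereas Dnmt1 and Uhrf1 had 0.547 and Uhrf1 and Dnmt3b 0.0309.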

How the data were processed

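The files held UMI counts per gene and barcode, which the authors deposited after Cell Ranger 6.0.0 with mm10, per the labels, and no further normalization. The strand setting of the counting is not given in the sources used here. Removal of doublets before deposit is not stated in them.

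Barcodes with under 1000 genes or over 20% of UMIs from mitochondrial genes were dropped, which left 3458 of 3840 in WT and 4417 of 4928 in KO. The deposited tables held 109122324 WT and 100029143 KO UMIs. For gating, each cell was thinned to 5000 UMIs, and 57 WT and 101 KO cells were too shallow. The markers came from a fixed list, whereas the UMI limits of the gates were set after the data had been seen. The members and gene lists were chosen with earlier results of these data known. The levels are CPM from all UMIs of the gated cells. Intervals are exact (Poisson for levels, Clopper-Pearson for shares, conditional binomial for ratios), at 95%, and cover counting error only. With 1 library per genotype no test was run. Genes needed 100 UMIs over both groups to be counted as past 25% (KO against WT, tertiles) or 2-fold (along the path). All 7 members and Nfkbia were named, with the pathway genes that passed these limits and the 3 most similar genes per member. Some values are not reported here.

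Scrublet (scanpy 1.11.5, expected rate 5%) called 120 WT and 231 KO cells, which were kept except where stated. The scripts used Python 3.11.15, numpy 2.4.6, scipy 1.17.1 and pandas 2.3.3, and were tested on simulated data. Alternatives were another gene minimum, removal of Scrublet calls, gates at 8500 UMIs or without thinning, stricter gates, a stem cell gate on Hlf and Mecom, other CPM denominators or scaling, means over cells, Xist-positive cells and equal tertile weights.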

Additional observations from a re-analysis of the deposited data

Results flagged for a closer look

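Uhrf1 stood apart because its KO/WT difference had opposite signs in different gates with counting intervals on either side of 0. The log2 KO/WT was 0.13 in the MPP gate and 0.13 in the late erythroid gate, against -0.14 in the erythroblast gate. The difference between these gates was not tested, since each genotype had 1 library. Without thinning the erythroblast value was 0.03, the late erythroid value 0.056 and the MPP value 0.44. With gates at 8500 UMIs they were -0.02, 0.014 and 0.21.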

How the results depend on the processing

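No paired analysis was possible because WT and KO were single libraries, so no replicate could be left out either. Of the KO/WT values under the alternatives, 434 stayed within their counting interval, 26 left it and 2 that were past 25% changed sign. The 434 include values that repeat the main ones because a setting changed no cell of the gate. The other gene minimum changed cells of the erythroblast gate only. The gate on Hlf and Mecom left the erythroid gates as they were, and removal of Scrublet calls left the stem cell gate so. Without thinning, KO/WT was 0.020 for Tet1 in the stem cell gate and -0.47 for Dnmt3b in the late erythroid gate. With 1 more marker UMI it was 0.30 for Uhrf1 in the stem cell gate. The log2 erythroblast/stem cell values (WT, then KO) left their interval in 32 cases and stayed within it in 52. Without Scrublet calls they were -5.17 and -4.78 for Dnmt3a, -6.60 and -6.54 for Dnmt3b, and -6.58 and -7.64 for Tet1. With gates at 8500 UMIs they were -3.77 and -3.77 for Dnmt3a, and in KO -4.33 for Dnmt3b, -0.024 for Uhrf1, -1.31 for Tet2 and -1.17 for Tet3. Without thinning they were 0.055 for Uhrf1 in WT, -1.20 for Tet2 in KO, and -1.41 and -1.23 for Tet3. With 1 more marker UMI they were -4.90 for Dnmt3a, -5.57 for Dnmt3b and 0.55 for Uhrf1, all in WT. Without haemoglobin, mitochondrial and ribosomal protein genes, a change that shifts every gene alike, they were -0.42 and -0.56 for Dnmt1, -3.84 for Dnmt3a in KO, -4.60 and -4.31 for Dnmt3b, 0.71 and 0.52 for Uhrf1, and -1.42 and -1.32 for Tet3. With equal tertile weights they were -1.02 and -1.24 for Dnmt1 and 0.18 and -0.039 for Uhrf1. For the stem cell tertiles, S genes alone gave -0.022 and 0.12 for Dnmt3b, 2.43 and 2.17 for Uhrf1, and in WT -0.92 for Tet2 and 0.15 for Tet3. G2/M genes alone gave 0.77 for Dnmt1 in WT, 0.48 and -0.39 for Uhrf1, and -0.11 for Tet1 in KO. Pathway genes past 25% in the stem cell gate numbered 8 of 40 counted with a minimum of 20 UMIs and 0 of 15 with 500, against 4 of 32. The share of all genes past 25% was not computed at minima of 20 and 500 UMIs, so these counts cannot be read as results about the list. The cause of the other shifts was not tested. Depth limits Tet1 and Tet2 most, with 14 and 39 UMIs in the WT erythroblast gate.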
